A study of Caenorhabditis elegans with 12 samples.

Results

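Introns of 60 nt or longer that the Ensembl event catalogue lists as retained were followed across 12 RNA-seq libraries made from whole larvae of Caenorhabditis elegans. The rule took every retained intron event whose excluded form leaves a gap of at least 60 nt between its exons, and it used no measured value. It found 461 introns of 879 retained introns listed, with the other 418 shorter, among 2619 events of all types in that catalogue and 7886 in both deposited catalogues. No 2 of them were the same intron, since no retained intron event listed shared both intron ends with another.

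All animals were L3 larvae, grown from bleached embryos for 34 hours at 20 °C on OP50 bacteria, and RNA of whole worms was sequenced after ribosomal RNA depletion. The 4 groups held 3 libraries each. Wild-type N2 was present as libraries az021 to az023 (N2 az02) and az041 to az043 (N2 az04). The mutants were strain DG3430, carrying sacy-1(tn1385), as libraries az024 to az026, and strain SZ454, carrying mog-5(az192), as libraries az044 to az046. The labels' protocols name no drug or other agent, and they do not say what change either allele makes. Each mutant was 1 strain. Whether each library had a culture of its own is not in the labels, and p-values here rest on the spread among 3 libraries, which may be technical. Each mutant was paired with the N2 set of its own library numbers, which the labels do not state in words. The event lists hold no expression levels, so neither the stage nor the mutated genes could be checked in them.

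Introns are removed from precursor RNA by the spliceosome, which joins a donor site (5′ splice site) to an acceptor site (3′ splice site). A retained intron stays in the transcript as part of 1 continuous exon, and a retained intron that shifts the reading frame or brings a stop codon often sends the RNA to nonsense-mediated decay. SACY-1 corresponds to DDX41 of humans and belongs to the DEAD-box helicases, which are found in spliceosomes among other places. MOG-5 is the counterpart of yeast Prp22, the helicase that releases finished mRNA from the spliceosome, and mog stands for masculinization of the germline. Most worm introns are short, so introns of 60 nt or longer are the part of the catalogue that lies above the common worm intron length. The series title asks about proofreading against nearby 3′ splice sites, and the comparisons below ask whether retention of longer introns differed in the same animals.

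Percent retention is the included score divided by the sum of the included and excluded scores of an event, in percent, so 100% means that none of the score fell on the intron's own spliced junction. The authors' files give scores and no read counts. The depth behind each value is therefore unknown, and a value such as 50% may rest on few or many reads. Of the 461 introns, the N2 az02 libraries listed 436 to 440 and the sacy-1 libraries 441 to 442, while the N2 az04 libraries listed 453 to 458 and the mog-5 libraries 454 to 458. In all 12 libraries 421 introns were listed, 40 were missing from at least 1, and 7 of those were listed in fewer than 6. No event of another type on the other strand in the same catalogue lay over any of the 461 introns. Retained intron events of the other strand were not searched.

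The 461 introns ran from 60 to 1770 nt, with a median of 137 nt and quartiles of 87 and 246 nt. They lay at 391 loci, of which 342 held 1 of them, 31 held 2, 15 held 3 and 3 held 4. Chromosome III carried 87, IV carried 82, X carried 81, I carried 76, V carried 72 and II carried 63. Their flanking exons were short, with medians of 137 nt upstream and 128 nt downstream. Introns on both sides of the length threshold covered most of the scale. Introns of 58 nt listed in all 12 libraries had a mean retention of 36.9%, those of 59 nt 55.1%, those of 60 nt 52.8% and those of 61 nt 66.9% (6, 8, 9 and 3 introns), and each of these lengths spanned from under 6% to over 98%.

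Retention was spread unevenly, with most introns near an end of the scale. Over the 421 introns listed in every library, the mean of the 12-library means was 55.3% and the median 54.0%. Retention averaged 95% or above in 158 introns (37.5%), and it averaged under 20% in another large share, with 46 (10.9%) under 5% and 97 (23%) from 5% to under 20%. The middle was thinner, with 60 introns (14.3%) from 20% to under 50%, 38 (9.03%) from 50% to under 80% and 22 (5.23%) from 80% to under 95%. Retention stood at 95% or above in all 12 libraries in 145 introns, and 87 of them stood at 99.9% in each library within 0.005 points. A further 19 introns stood at 5% or below in all 12. For 192 of the 421 introns the highest and the lowest library lay less than 5 points apart, for 103 they lay at least 15 points apart and for 11 at least 50 points apart. The 352 shorter retained introns listed in all 12 libraries had a mean of 50.9% and a median of 40.2%, with 112 at 95% or above and 37 at 5% or below in all 12.

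**Figure D1:**
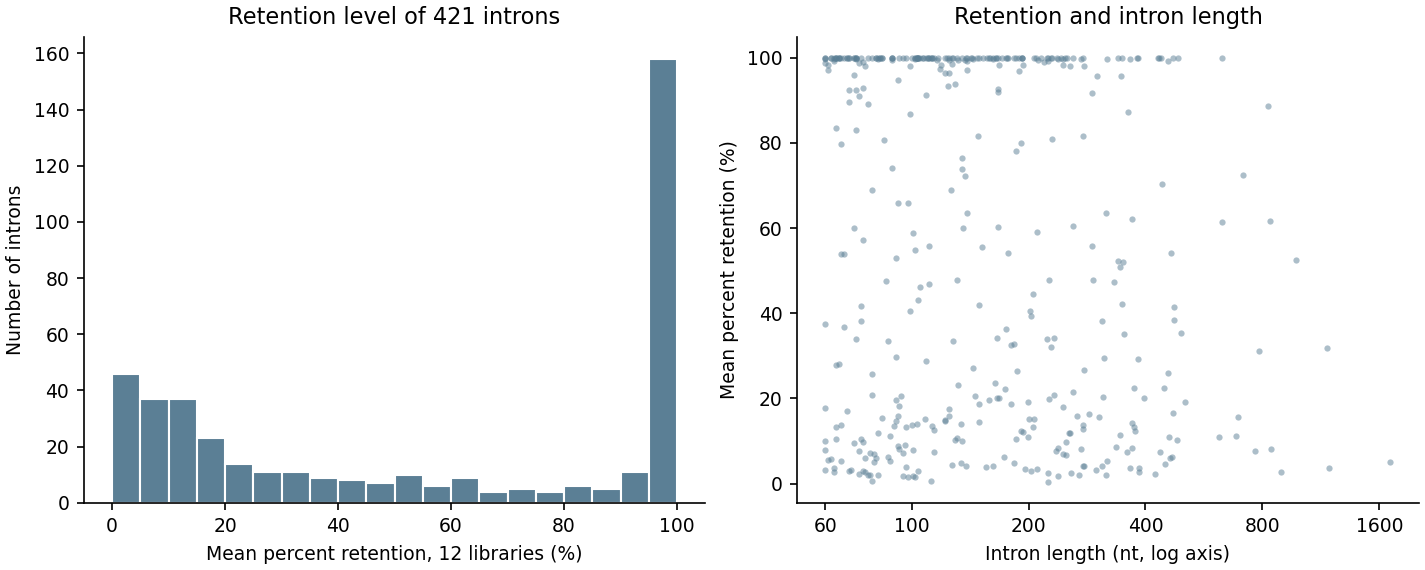
Left, number of the 421 introns by mean percent retention over 12 libraries, in steps of 5 points. Right, mean percent retention against intron length in nt on a log axis, each point 1 intron. The tallest bar is the one at 95% or above, with 158 introns, and points near 100% occur across much of the length range.

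Mean retention was lower over introns of 200 nt and more than over shorter ones. Mean retention was 56.2% over 136 introns of 60 to 99 nt, 64.6% over 144 introns of 100 to 199 nt, 46.6% over 103 introns of 200 to 399 nt and 40.4% over 38 introns of 400 to 1770 nt. The share that stood at 95% or above in all 12 libraries was 36.8%, 43.8%, 24.3% and 18.4% in the same order. Across the 421 introns the Spearman correlation of length with mean retention was -0.13, a description over introns that share the same libraries. Introns whose length was a multiple of 3, which keep the reading frame unless they hold a stop codon, numbered 166 (39.4%) and had a mean retention of 60.3%. Retention averaged 47.0% over the 117 introns 1 nt above a multiple of 3 and 56.3% over the 138 introns 2 nt above one. Of the 145 introns at 95% or above in all libraries, 69 (47.6%) were multiples of 3, against 90 (35.0%) of the 257 introns outside both extremes. The 352 shorter retained introns listed in all 12 libraries did not show this. Their multiples of 3 averaged 48.9%, against 53.4% and 51.2% for lengths 1 and 2 nt above one. They made up 34 of the 112 shorter introns at 95% or above in all libraries. The reading frame itself was not read here.

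The 5 longest introns had low or intermediate retention. The longest of all, 1770 nt on chromosome II at 10331486 to 10333255 (ce10, plus strand), was absent from az021 and ranged from 0.1% to 58.3% in the other libraries. The second, 1710 nt on chromosome II at 4519236 to 4520945 (plus strand), stood at 0.1% in az023, az024 and az025. Its highest value was 12%, in az041. The 1188 nt intron on chromosome IV at 13201979 to 13203166 (minus strand) was at or below 7.1% in every library. Intermediate retention was found in the other two of the 5 longest, the 1177 nt intron on chromosome III at 256283 to 257459 and the 975 nt intron on chromosome X at 3776851 to 3777825, both on the plus strand, with 12-library means of 31.8% and 52.6%.

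A percentage here belongs to 1 exact pair of splice sites. Among introns listed in all 12 libraries, 46 pairs shared 1 splice site and differed at the other, 18 with a shared donor and 28 with a shared acceptor. The 2 introns of a pair differed by a median of 42 points of retention, and 30 pairs differed by at least 20 points. In 14 pairs the differing sites lay 1 to 18 nt apart. In 7 of those the longer intron was retained at 95% or above while the shorter stood below 20%. On chromosome X (minus strand), the 224 nt intron at 8722938 to 8723161 averaged 0.47% and the 225 nt intron at 8722937 to 8723161 averaged 99.2%. On chromosome V (minus strand), the 60 nt intron at 9054652 to 9054711 averaged 8.01% and the 61 nt intron at 9054652 to 9054712 averaged 98.2%. On chromosome III (minus strand), the 101 nt intron at 731800 to 731900 averaged 7.84% and the 102 nt intron at 731799 to 731900 averaged 99.8%. These 3 pairs were chosen after their values were seen. In such pairs the high percentage describes a junction that was seldom used beside a neighbouring junction that was used in most of its measured transcripts. Of the highly retained introns, 43 of the 145 at 95% or above in all libraries overlapped another listed intron on their strand, against 134 of the 257 introns outside both extremes.

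**Figure D2:**
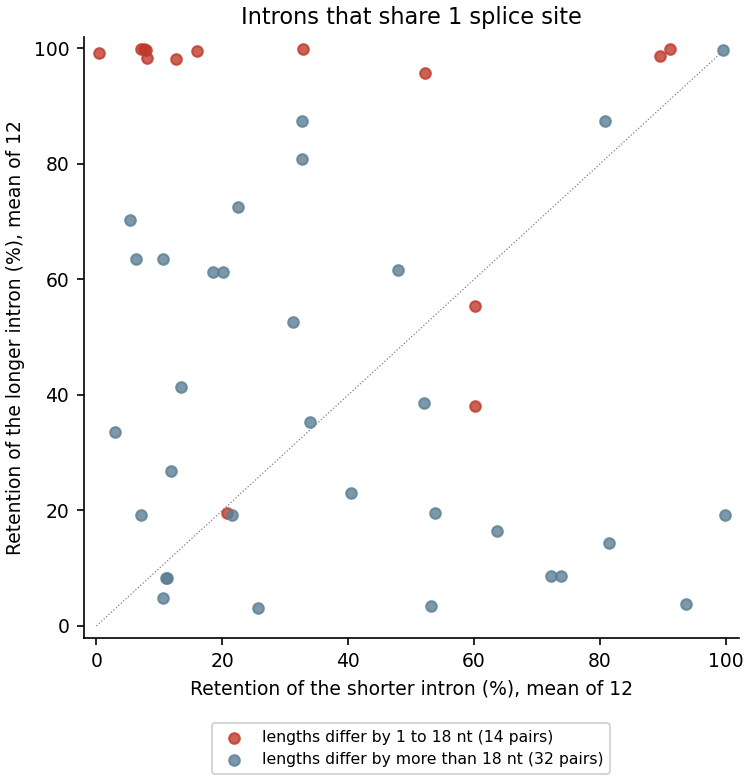
Mean percent retention over 12 libraries of the longer against the shorter intron in 46 pairs that share 1 splice site. Red points are the 14 pairs whose lengths differ by 1 to 18 nt, and the dotted line marks equal retention. 7 red points sit at the upper left, where the longer intron is at 95% or above and the shorter below 20%.

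Over the 421 introns as a whole, the groups lay close together. The N2 az02 libraries averaged 54.9% ± 0.387 and the sacy-1 libraries 55.2% ± 0.321 (SD, n = 3 libraries each). The N2 az04 libraries averaged 55.3% ± 0.336 and the mog-5 libraries 55.8% ± 0.229 (SD, n = 3). The libraries ranged from 54.9% to 55.5% in sacy-1 against 54.6% to 55.3% in N2 az02, which overlap. They ranged from 55.6% to 56.1% in mog-5 against 55.0% to 55.6% in N2 az04, and the lowest mog-5 library lay below the highest N2 library. No test was run on these means. The libraries az021 to az026 were less even than az041 to az046. The mean SD of an intron between the libraries of its group was 2.98 points for N2 az02 and 2.46 points for sacy-1, but 2.12 points for N2 az04 and 1.92 points for mog-5. The SD was above 10 points in 26, 16, 12 and 8 introns in the same order. Introns at 0.1%, the usual low end of the scale, were counted over all of the 461 introns that a library listed. They numbered 10 to 14 per library in N2 az02 and 9 to 14 in sacy-1. In N2 az04 they numbered 1 to 3, and in mog-5 0 to 1. Between any pair of libraries of a group, 12.8% to 22.3% of the 421 introns differed by at least 5 points.

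No intron of 60 nt or longer passed the call in sacy-1 against N2 az02. The call asked for an adjusted p below 0.05 in limma, with Benjamini-Hochberg adjustment over the whole Ensembl catalogue, and a difference of at least 15 points. With it 0 of 422 introns tested were called, against 0.714% of all events tested. At an unadjusted p below 0.05, with no minimum difference, limma gave 39 introns (9.24%) against 12.6% of all events, and on the arcsine square root scale 0 were called. Of the 39, 26 leaned higher (all events 6.51%) and 13 lower (all events 6.09%) in sacy-1. The sacy-1 libraries lay wholly above or below N2 az02 for 50 introns, 11.8% of those tested against 16.3% of all events. Differences were small for most: 355 of 422 were under 5 points, and the median was 0.00 both over these introns and over all events. Among the 355 are the 145 introns at 95% or above in all 12 libraries and the 19 at 5% or below. Those introns could not differ by 5 points, and they also count in the other values of this paragraph. How many of all events stood at either end is not given here. The 95% interval of an intron's difference had a median half-width of 3.13 points.

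The sacy-1 introns with the smallest p-values shifted by a few points, and none reached an adjusted p of 0.05. The 101 nt intron on chromosome IV at 7790386 to 7790486 (minus strand) had the largest shift among the 10 smallest. It read 63.0%, 60.4% and 64.2% in N2 az02 and 43.4%, 52.5% and 49.6% in sacy-1, a difference of -14.0 points (95% interval -21.5 to -6.57, limma adjusted p = 0.146). All 3 sacy-1 libraries were lower than all 9 others, including mog-5 at 60.9% to 62.9%. The 91 nt intron on chromosome V at 6957381 to 6957471 (plus strand) read 13.7%, 17.7% and 12% in N2 az02 and 22.7%, 23.9% and 24.7% in sacy-1 (difference 9.32 points, limma adjusted p = 0.132). Again the groups did not overlap, and the N2 az04 libraries at 18% to 21.6% lay between them. The 278 nt intron on chromosome II at 4521694 to 4521971 (plus strand) read 28.6%, 27.9% and 30.0% in N2 az02 and 23.1%, 23.9% and 19.8% in sacy-1 (difference -6.60 points, limma adjusted p = 0.146). The sacy-1 values were the lowest of the 12 libraries there too.

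The other 7 of these 10 introns differed by 5.59 points or less in either direction. The smallest p belonged to the 300 nt intron on chromosome X at 2699024 to 2699323 (minus strand), which read 95.9% to 96.0% in N2 az02 and 97.4% to 98.1% in sacy-1 (difference 1.66 points, limma adjusted p = 0.0794). The 73 nt intron on chromosome X at 14319161 to 14319233 (minus strand) averaged 88.4% ± 1.04 in N2 az02 and 94.0% ± 1.26 in sacy-1 (SD, n = 3), a difference of 5.59 points (limma adjusted p = 0.102). The 168 nt intron on chromosome X at 3504085 to 3504252 (plus strand) averaged 14.9% ± 1.18 and 18.6% ± 0.456, and against N2 az04 its difference turned to -0.81 points. The 76 nt intron on chromosome IV at 4469836 to 4469911 (minus strand) averaged 95.8% ± 0.683 and 98.9% ± 0.890. The 101 nt intron on chromosome III at 731800 to 731900, the shorter of the pair given above, averaged 6.63% ± 0.703 and 9.07% ± 0.499. All of these were nearly fully retained or mostly spliced in both groups. The remaining pair were the 114 nt intron on chromosome III described with its 3′ splice sites below and the 63 nt intron on chromosome III at 5506235 to 5506297 (plus strand), whose -0.32 points lay between 99.9% and 99.6% and became 0.01 points against N2 az04.

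Between sacy-1 and N2 az02, 8 introns differed by at least 15 points, and the smallest limma adjusted p among them was 0.213. The widest gap, 35.5 points, was at an 89 nt intron on chromosome X at 15546981 to 15547069 (minus strand). It rested on 1 library, since N2 az02 read 0.1%, 70.8% and 70.8% and sacy-1 read 99.9%, 70.8% and 77.5%. The 836 nt intron on chromosome III at 6411880 to 6412715 (minus strand) read 43.8%, 60% and 30% in N2 az02 and 67.9%, 84.4% and 66.7% in sacy-1 (difference 28.4 points, limma adjusted p = 0.367). The N2 az04 libraries read 60.3% to 69.1% there, which overlaps sacy-1. The 836 nt intron was named for its size after its values were seen.

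In mog-5 against N2 az04, too, no intron of 60 nt or longer was called. With limma 0 of 448 were called, against 0.04% of all events tested. At an unadjusted p below 0.05, with no minimum difference, there were 25 introns (5.58%) against 10.2% of all events, and 0 were called on the arcsine square root scale. Of the 25, 18 leaned higher (all events 5.4%) and 7 lower (all events 4.76%) in mog-5. The groups did not overlap for 32 introns, 7.14% of those tested against 13.8% of all events. Differences under 5 points made up 401 of 448, the median was 0.00 over these introns and over all events, and the median half-width of the 95% interval was 2.56 points. The 401 again include the 145 and 19 introns near the ends of the scale, which could not differ by 5 points. They count in the shares set against all events here too.

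The intron with the smallest p in mog-5 was 79 nt long and lies on chromosome X at 6845416 to 6845494 (plus strand). It read 16.4%, 21.2% and 20.6% in N2 az04 and 52.1%, 42.9% and 50% in mog-5, a difference of 28.9 points (95% interval 20.9 to 37.0, limma unadjusted p = 0.000404, adjusted p = 0.101). All 3 mog-5 libraries lay more than 20 points above N2 az04. The same intron read 0.1%, 0.1% and 3.57% in N2 az02 and 14.3%, 45% and 41.7% in sacy-1 (difference 32.4 points, limma adjusted p = 0.268), so each mutant lay above its own N2 set in all 3 libraries. The intron shares its donor with a 203 nt intron that averaged 3.08% over the 12 libraries, and it also forms part of a skipped exon event, so its transcripts have more than 1 spliced form.

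A 74 nt intron on chromosome V at 8513082 to 8513155 (minus strand) showed the same order in both mutants. It read 28%, 31.9% and 31.1% in N2 az04 and 41.2%, 50.3% and 41.7% in mog-5 (difference 14.1 points, limma adjusted p = 0.267). It read 42%, 30.5% and 38.1% in N2 az02 and 50.6%, 53.2% and 61.6% in sacy-1 (difference 18.3 points, limma adjusted p = 0.213). Each mutant lay above its own N2 set without overlap, while 1 N2 az02 library lay above 2 of the mog-5 libraries.

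Other introns among the 10 smallest p-values in mog-5 moved less or varied more. The 191 nt intron on chromosome V at 1624071 to 1624261 (minus strand) read 79.2%, 48.4% and 56.7% in N2 az04 and 99.9%, 99.9% and 92.1% in mog-5 (difference 35.8 points, limma adjusted p = 0.302). Its N2 az02 libraries read 99.9%, 69.4% and 37.5%, so wild-type animals alone covered most of that range. The summed score of this event fell as low as 31.2 per mille in N2 az04 and 250 in N2 az02. In mog-5 it was at least 936.5, and the part of that sum in the result was not tested. The 132 nt intron on chromosome II at 2453216 to 2453347 (minus strand) read 14.9% to 19.5% in N2 az04 and 23.6% to 26.5% in mog-5, with 1 sacy-1 library at 58.3%. The 174 nt intron on chromosome X at 12031121 to 12031294 (plus strand) averaged 19.6% ± 0.745 in N2 az04 and 25.7% ± 0.957 in mog-5 (SD, n = 3), a difference of 6.03 points (limma adjusted p = 0.117). The 64 nt intron on chromosome I at 3339777 to 3339840 (plus strand) averaged 11.8% ± 1.79 and 17.8% ± 1.99. The 975 nt intron on chromosome X, among the 5 longest, leaned the other way, with 60.4% ± 1.93 and 54.8% ± 1.89. That direction turned with the control libraries, since the mog-5 difference there was 6.92 points against N2 az02 and 0.65 points against all 6 N2 libraries. The other 3 of the 10 differed by 0.93 to 3.41 points. The 81 nt intron on chromosome V at 12965516 to 12965596 had the widest gap of all, 43.8 points, with an unadjusted limma p of 0.153, and was named for its size after its values were seen.

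**Figure D3:**
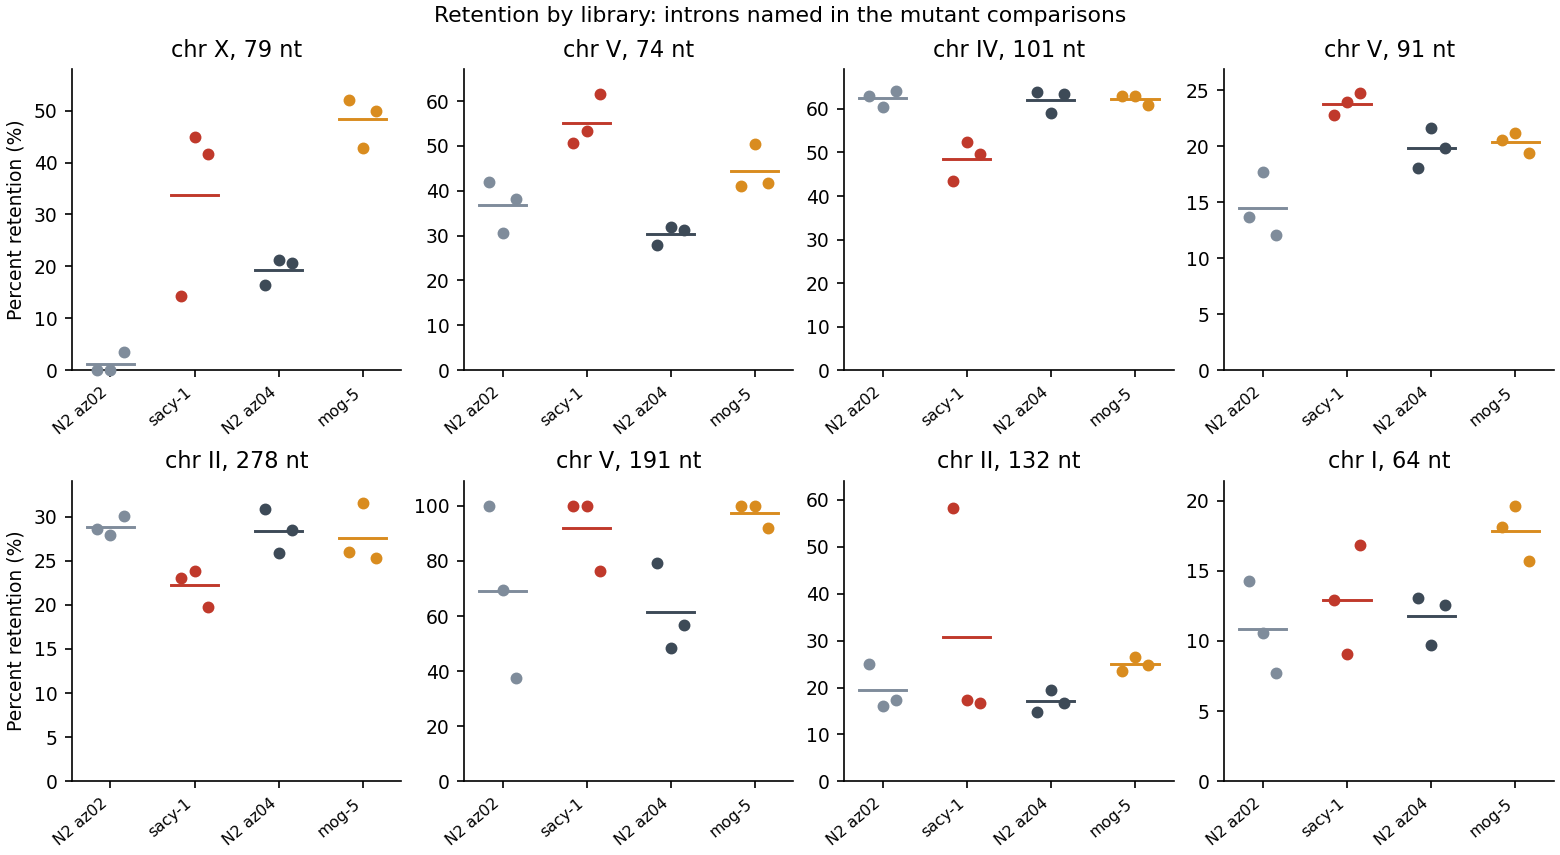
Percent retention in each of the 12 libraries (points) with the group mean (bar) for 8 introns, titled by chromosome and length. The first pair, chromosome X 79 nt and chromosome V 74 nt, sit above their own N2 set in both mutants. The next 3 have the largest shifts among the 10 smallest p-values in sacy-1, and the last 3 those in mog-5 apart from the first pair.

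A fit of all 12 libraries with mutant and library set as terms, added after the values were seen, tested the shift that both mutants share. It called 2 of 421 introns, against 0.798% of all events, and these were the 79 nt intron on chromosome X and the 74 nt intron on chromosome V. Retention of the 79 nt intron was 30.7 points higher in the mutants (SE 4.77, limma adjusted p = 0.0113), and that of the 74 nt intron 16.2 points higher (SE 2.72, limma adjusted p = 0.0141). In both introns 6 of 6 mutant libraries lay above all libraries of their own N2 set. That order was read from the same values as the call, and its share over all events is not given here. At the 79 nt intron the sacy-1 library az024, at 14.3%, lay below all N2 az04 libraries, at 16.4% to 21.2%. The call on the 74 nt intron did not hold without az022 or without az026, where the difference was 14.5 points, under the minimum of 15. The fit assumes that the mutants shift alike, and since the introns had been seen first it is a description of these libraries. In the same fit 36 introns (8.55%) had an unadjusted p below 0.05, against 14.1% of all events.

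Whether the mutants differed in their effects was tested with an interaction term over the 12 libraries. With limma it called 0 of 421 introns, against 0.252% of all events, and 23 (5.46%) had an unadjusted p below 0.05 against 9.16% of all events. The smallest adjusted p was 0.156. The 101 nt intron on chromosome IV was among the 5 smallest, with its -14.0 points in sacy-1 beside 0.10 points in mog-5 (difference of effects 14.1 points, limma adjusted p = 0.161). The 91 nt intron on chromosome V was another, with 9.32 points in sacy-1 and 0.54 points in mog-5 (difference of effects -8.78 points, limma adjusted p = 0.161). The other 3 were the 97 nt intron on chromosome I at 5902451 to 5902547 (minus strand) and the 73 nt and 63 nt introns at 420087 to 420159 on chromosome V and 5506235 to 5506297 on chromosome III. These 3 had differences of effects of 0.52 to 3.41 points.

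The 2 wild-type sets share strain, stage and protocol per the labels, and some introns differed between them. N2 az04 against N2 az02 gave 2 called introns of 427 with limma, against 0.499% of all events, and 5 (1.17%) with an adjusted p below 0.05 and no minimum difference, against 1.7%. At an unadjusted p below 0.05 there were 62 introns (14.5%) against 18.7% of all events, 32 higher (all events 10%) and 30 lower (all events 8.65%) in N2 az04. The groups did not overlap for 80 introns, 18.7% of those tested against 23.2% of all events. These counts share their N2 libraries with the mutant comparisons, and the counts of the comparisons were not tested against each other.

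The first called intron is 442 nt long and lies on chromosome X at 8998102 to 8998543 (plus strand). It read 82.2%, 90.6% and 84.4% in N2 az02 and 57.9%, 61.4% and 57.9% in N2 az04, so retention was 26.7 points lower in N2 az04 (95% interval -33.7 to -19.6, limma adjusted p = 0.0404). The mutant libraries read 81.4%, 70.7% and 77.9% in sacy-1 and 61.8%, 62.0% and 55.6% in mog-5. The mog-5 range overlapped that of N2 az04. All 3 sacy-1 libraries lay below every N2 az02 library and above every N2 az04 library. Their difference from N2 az02 was -9.06 points (limma adjusted p = 0.466). The summed score of this event moved with the sets as well, from 689.7 to 847.1 per mille in N2 az02 and 494.3 to 677.3 in sacy-1 to 348.6 to 406.3 in N2 az04 and 346 to 411 in mog-5. The part of that sum in the result was not tested. The other called intron was the 79 nt intron on chromosome X, 18.1 points higher in N2 az04 than in N2 az02 (95% interval 13.3 to 23, limma adjusted p = 0.0411). Leaving out any 1 of the 6 libraries ended the call on the 442 nt intron, with differences of -28.4 to -24.3 points. The call on the 79 nt intron ended in 5 of these 6 fits, the exception being az041, with differences of 17.2 to 19.6 points over the 6 fits, and also on the arcsine square root scale.

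A further 3 introns had an adjusted p below 0.05 with smaller differences. The 93 nt intron on chromosome X at 10094950 to 10095042 (minus strand) averaged 2.6% ± 0.356 in N2 az02 and 11.1% ± 1.82 in N2 az04 (SD, n = 3, limma adjusted p = 0.0477), and mog-5 read 12.3%, 17.8% and 19.7%. The 186 nt intron on chromosome I at 15001378 to 15001563 (plus strand) averaged 81.6% ± 1.4 and 75% ± 0.303 (SD, n = 3, limma adjusted p = 0.0477). The 73 nt intron on chromosome V at 420087 to 420159 (plus strand) stood at 99.9% in all 3 N2 az02 and all 3 sacy-1 libraries and at 95.4% to 96.2% in N2 az04 (limma adjusted p = 0.018). Its SD was 0 in N2 az02 and 0.396 points in N2 az04, so the spread behind its p came from N2 az04 alone, moderated by limma with that of the other events. Of the other 5 among the 10 smallest p-values, with limma adjusted p of 0.0515 to 0.0576, the 447 nt intron on chromosome V at 7973534 to 7973980 (minus strand) averaged 20.4% ± 0.884 in N2 az02 and 25.3% ± 0.745 in N2 az04 (SD, n = 3). The 205 nt intron on chromosome II at 9259325 to 9259529 (minus strand) averaged 15.2% ± 0.371 and 10.1% ± 1.25. The 138 nt intron on chromosome V at 12101776 to 12101913 (plus strand) averaged 2.24% ± 0.958 and 6.68% ± 0.657. The last pair were the 63 nt intron on chromosome III given above, with a difference of -0.33 points, and the 166 nt intron on chromosome I described with the library sets below.

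**Figure D4:**
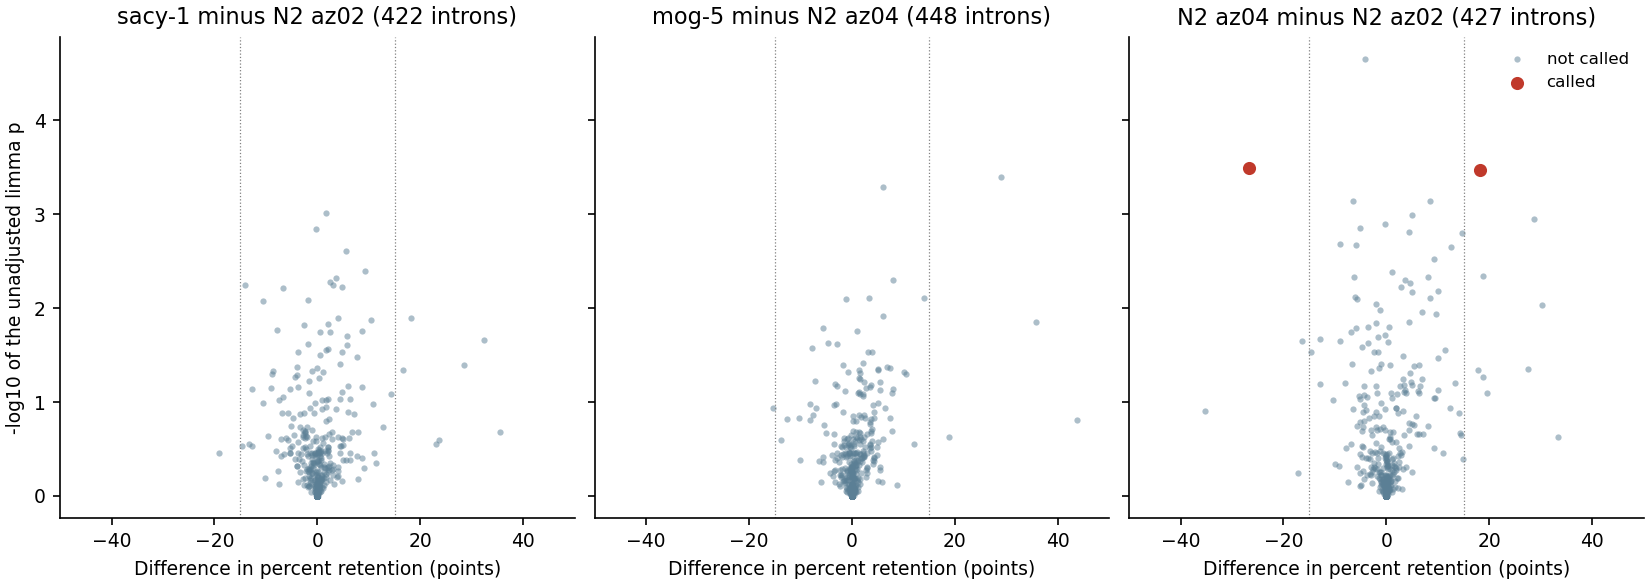
Each point is 1 intron, with the difference in percent retention in points on the x axis and -log10 of the unadjusted limma p on the y axis, for sacy-1 minus N2 az02 (422 introns), mog-5 minus N2 az04 (448) and N2 az04 minus N2 az02 (427). Dotted lines mark 15 points. The only called introns, in red, are the 2 in the wild-type comparison.

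In the added fit of all 12 libraries, the term for library set called 8 of 421 introns (1.9%), against 3.36% of all events. An adjusted p below 0.05 with no minimum difference was reached by 51 introns (12.1%), against 17.4%, and an unadjusted p below 0.05 by 93 (22.1%), against 29.4%. For 6 of the 8 the 6 libraries az041 to az046 did not overlap the 6 libraries az021 to az026, with both genotypes in each set. The 8 were picked on these same values, so this separation adds no support to their calls. Its share over all events is not given here. The widest was the 226 nt intron on chromosome I at 4994298 to 4994523 (minus strand), which read 6.82%, 5.26% and 4.55% in N2 az02 and 7.14%, 2.08% and 0.1% in sacy-1. It read 48.7%, 34.9% and 23.9% in N2 az04 and 27%, 41% and 36.5% in mog-5 (set difference 31.0 points, SE 3.95, limma adjusted p = 0.000874). No library of one set reached the range of the other.

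The 166 nt intron on chromosome I at 9504554 to 9504719 (plus strand) had the smallest adjusted p. It read 3.02% to 12.7% in az021 to az026 and 29.0% to 39.3% in az041 to az046 (set difference 28.5 points, SE 2.14, limma adjusted p = 5.8e-05). The 207 nt intron on chromosome II at 8122331 to 8122537 (plus strand) read 4.40% to 11.1% and 19.0% to 28.2% (set difference 15.5 points, SE 1.66), a call that ended without az022 (14.7 points) or without az045 (14.2 points). The 67 nt intron on chromosome IV at 10909948 to 10910014 (plus strand) read 21.2% to 32.9% and 44.7% to 52.7% (set difference 21.2 points, SE 2.17). Its summed score fell from 407.3 to 662.4 per mille in the first set to 233.7 to 407 in the second, and with the included score over 1000 in place of the ratio its set difference was -1.27 points. The direction at that intron therefore depends on how the score sum is treated. The other 2 called introns off chromosome X were the 111 nt intron on chromosome V at 14895872 to 14895982, 16.4 points higher, and the 167 nt intron on chromosome IV at 8930036 to 8930202, 16.3 points lower in az041 to az046. Both are on the plus strand. The ranges of the sets overlapped in the 167 nt intron, with 63.6% to 74.3% against 38.8% to 63.7%. Both calls depended on single libraries. The call on the 111 nt intron ended in 5 of 12 fits, without az022, az025, az041, az042 or az045, with differences of 14.2 to 15.9 points. The call on the 167 nt intron ended in 7 of 12, without az021, az024, az025, az041, az042, az044 or az045, with differences of -16.1 to -13.3 points. The call for library set on the 79 nt intron on chromosome X held only without az025 or az026, and in the other 10 fits its difference was 12.3 to 17.8 points.

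The libraries az021 to az026 listed fewer of the introns and held more of them at 0.1%, as given above. The part of either in the set differences was not tested, and the sets cannot be told apart from anything else that differed between them.

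**Figure D5:**
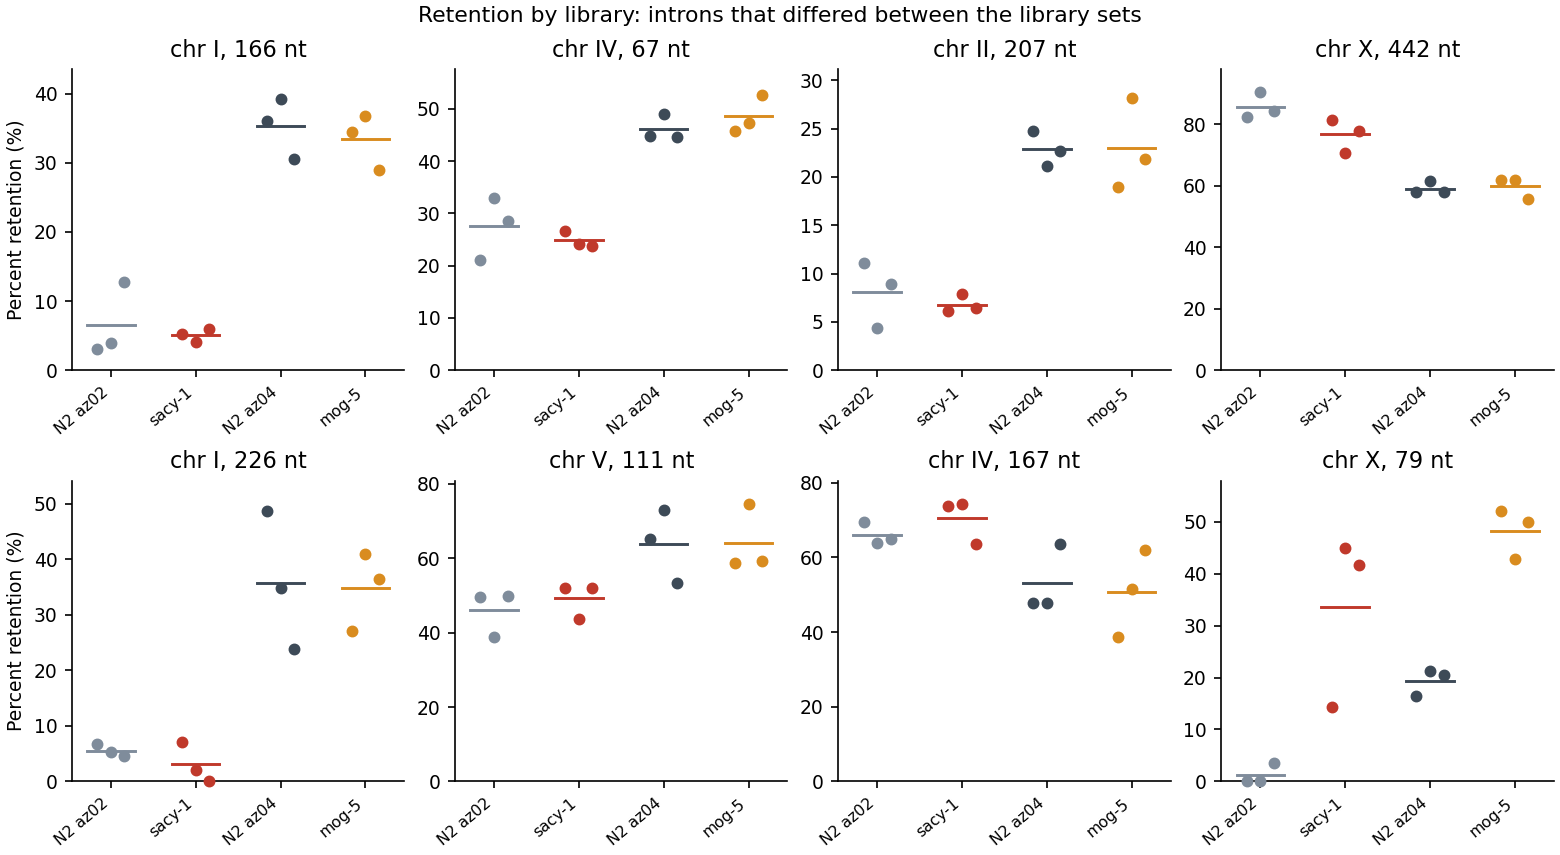
Percent retention in each of the 12 libraries (points) with the group mean (bar) for the 8 introns called for library set, titled by chromosome and length. In the first 7 panels the mean of sacy-1 lies nearer to N2 az02 and that of mog-5 nearer to N2 az04. At chromosome X 442 nt all sacy-1 points lie below N2 az02. In the last, chromosome X 79 nt, the mutants also lie above their own N2 set.

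Some of these introns also take part in a choice between 2 splice sites. The library-intron catalogue holds an alternative 3′ or 5′ splice site event with the same intron for 56 of the 461, 22 in 3′ and 38 in 5′ events. Of the 20 alternative 3′ events tested in sacy-1 with limma, 0 were called, against 9.29% of all alternative 3′ events in that catalogue. An unadjusted p below 0.05 was found in 4, against 29.1%, and an adjusted p below 0.05 in 1, against 14.5%. In mog-5 the same counts of 20 were 0, 3 and 1, against 1.92%, 19.7% and 3.9%. The wild-type sets gave 4 of 20 at an unadjusted p below 0.05, as many as sacy-1, against 16% of all alternative 3′ events. Of the alternative 5′ events 34 were tested in sacy-1 and 36 in mog-5, and 0 were called in each, against 0.471% and 0.0575% of all alternative 5′ events. An unadjusted p below 0.05 was found in 3 in each, against 7.42% and 6.96%, and also in 3 of 36 between the wild-type sets, against 7.88%.

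The 1 alternative 3′ event with an adjusted p below 0.05 was the same in both mutants. It belongs to the 114 nt intron on chromosome III at 11132459 to 11132572 (plus strand), for which an acceptor 7 nt upstream gives an intron of 107 nt. Use of the upstream acceptor read 0.1%, 0.87% and 0.1% in N2 az02 and 8.14%, 8.91% and 9.71% in sacy-1 (difference 8.56 points, limma adjusted p = 0.00221). It read 2%, 2.17% and 2.82% in N2 az04 and 4.95%, 4.71% and 5.56% in mog-5 (difference 2.74 points, limma adjusted p = 0.0457). Each mutant lay above all 6 N2 libraries. Retention of the 114 nt intron read 2.68%, 3.78% and 5.99% in N2 az02 and 8.64%, 8.69% and 9.21% in sacy-1 (difference 4.70 points, limma adjusted p = 0.146), and 6.37% to 9.93% in N2 az04 against 7.18% to 9.93% in mog-5. Both percentages have the 114 nt junction as their excluded form, so they are not independent of each other.

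The 91 nt intron on chromosome V has an acceptor 12 nt upstream, which gives an intron of 79 nt. Use of that acceptor read 12.5%, 13.3% and 9.88% in N2 az02 and 20.7%, 18.5% and 25.5% in sacy-1 (difference 9.63 points, limma adjusted p = 0.0659), beside the 9.32 points in retention given above. In mog-5 against N2 az04 the difference was 1.58 points in the acceptor and 0.54 points in retention.

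Over the introns linked to an alternative 3′ event, retention had no common direction. Of the 12 that were the shorter intron of their event, 4 were higher and 8 lower in sacy-1, with a median of -2.01 points, and 6 were higher and 6 lower in mog-5, with a median of -0.06 points. Of the 10 that were the longer intron, 5 were higher and 5 lower in sacy-1 and 6 were higher and 4 lower in mog-5, with medians of -0.01 and 0.32 points. None of these introns was called.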

How the data were processed

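Splicing was scored in 12 libraries of whole L3 larvae. The authors deposited 2 event lists per library on build ce10 per the file headers, in which both forms of an event, included and excluded, carry a score in per mille. Bowtie2, STAR and SAMtools are named in the submitters' processing notes, with no version or role, and how the score was computed is not given in the sources used here. Both scores of an event in the Ensembl list often sum to less than 1000. Libraries with fewer junction reads would give coarser values, and read numbers were not used here because the lists hold none.

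Percent retention was computed as the included score over both scores. Tests of group differences used limma 3.58.1 (R 4.3.3) on percent, over every Ensembl event listed in all 6 libraries of a comparison, with Benjamini-Hochberg adjustment over that catalogue and no covariates. Calls needed an adjusted p below 0.05 and 15 points. In simulated data with shifts of 20 points, 71% of changed events were called for sacy-1 and 80% for mog-5. With shifts of 40 points these shares were 89% and 98%. The simulations held 2382 Ensembl events of all types for sacy-1 and 2498 for mog-5. In each, 100 events were shifted by 20 points and 100 by 40 points. The shifted events were drawn only from those whose N2 mean left room to rise by 40 points. Shares for the retained introns studied here are not given. The 158 introns that averaged 95% or above could not rise by 20 points. The simulated shares therefore do not tell how often a shift in these introns would be called. Introns named in the text were drawn from the called ones, the 10 with the smallest p per comparison (5 for the interaction), the 10 most retained, the 5 longest and the 5 with the largest SD within a group, plus those said to be chosen after their values were seen. The introns and rules were chosen with earlier results of these data known. Alternatives changed the scale, the variance model, the score-sum minimum, the denominator, the listing filter, the N2 set, the minimum difference and the libraries used. Introns carry no gene IDs, so gene names and sequences are not given. Intervals cover the spread between libraries only.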

Additional observations from a re-analysis of the deposited data

How the results depend on the processing

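The count of called introns in sacy-1, 0, became 1 in a fit of all 12 libraries, 1 against all 6 N2 libraries, 7 against the other N2 set and 39 at an unadjusted p below 0.05. It was 0 to 1 with each library left out in turn. In mog-5, 0 became 1 against all 6 N2 libraries, 4 against the other N2 set and 25 at an unadjusted p below 0.05. A mutant set against the other N2 set also differs from it in library set, for which 3.36% of all events were called. Mutant and library set therefore cannot be told apart in the 7 and the 4. Between the N2 sets, 2 became 1 on the arcsine square root scale, 0 with a score sum of at least 900, 4 in the 12-library fit, 5 without a minimum difference, 62 at an unadjusted p below 0.05 and 0 to 1 with each library left out. The interaction's 0 became 23 at an unadjusted p below 0.05. For library set, 8 became 0 with a score sum of at least 900, 5 with the included score over 1000, 13 with a minimum of 10 points, 51 without one, 93 at an unadjusted p below 0.05 and 4 to 8 with each library left out. For the shift shared by both mutants, 2 became 0, 1 and 36 with the score-sum minimum, the included score over 1000 and the unadjusted p, and 1 to 2 with each library left out. Fewer introns are tested under the score-sum minimum, where 280 of the 421 remain, and the cause of the other changes was not tested. For most of these alternatives the share over all events is not given here. Their gains and losses therefore cannot be set against those of the whole catalogue. Group means in the order N2 az02, sacy-1, N2 az04 and mog-5 became 63.6%, 63.6%, 63.6% and 64.0% with that minimum, 52.1%, 52.6%, 52.6% and 53.2% with the included score over 1000, and as medians 54.0%, 54.1%, 53.5% and 53.6%.

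Over 45 results on named introns, 560 alternatives kept direction and side of the threshold, 43 lost the call, 4 gained it and 7 turned the direction. Only results called at the start could lose a call: 2 between the N2 sets, 8 for library set and 2 for the shift shared by both mutants. All other results were uncalled and named for their small p-values, so keeping their side meant staying uncalled. The 560 is therefore no measure of how stable the calls were. Against the other N2 set the sacy-1 difference turned to 0.01 at 5506235 on chromosome III and -0.81 at 3504085 on X. There the mog-5 difference turned to -0.74 at 420087 on V, -0.50 at 5902451 on I and 6.92 at 3776851 on X, where it was 0.65 against all 6 N2 libraries. The library-set difference at 10909948 on IV turned to -1.27 with the included score over 1000. Without 1 library, the call for library set ended in 10 of 12 fits at 6845416 on X, 7 at 8930036 on IV, 5 at 14895872 on V and 2 at 8122331 on II. No paired analysis was run, because the labels do not say whether any libraries of the groups compared were prepared as pairs. What depth limits is unknown, since the lists hold no read counts.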

Other observations

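The introns whose retention varied most within a group moved over most of the scale between libraries of the same strain. The 332 nt intron on chromosome IV at 3964118 to 3964449 (plus strand) read 0.1%, 33.0% and 84.4% in N2 az04. The 294 nt intron on chromosome III at 6412422 to 6412715 (minus strand) read 99.9%, 78.3% and 37.5% in N2 az02. The 99 nt intron on chromosome II at 2453216 to 2453314 (minus strand) read 77.5%, 20% and 41.7% in N2 az02 and 50%, 58.3% and 8.33% in sacy-1. The lists give no read number beside these values.

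The 10 most retained introns averaged 99.9% to 99.94% over the 12 libraries. That is the top of the scale, where 87 introns stood at 99.9% in every library, so the order among the 10 rests on the last digit of the score and the tenth is tied with others. One of the 10 was 192 nt long, on chromosome II at 7544762 to 7544953 (plus strand). The 381 nt intron on chromosome X at 8722867 to 8723247 (minus strand), also among the 10, spans the pair of 224 and 225 nt given above, of which the shorter averaged 0.47%. Its own junction is therefore one of 3 listed over the same stretch.

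Of the 461 introns, 81 also stand in Ensembl events of another type, and 12 of these are among the 56 with a library-intron event. For 48 it is a skipped exon, for 20 an alternative first exon, for 12 multiple skipped exons, for 9 an alternative last exon and for 3 mutually exclusive exons.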
